A study of Drosophila melanogaster with 3 samples.

Results

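The 10 genes described here are Mef2 and 9 genes of the muscle cell's contractile and structural proteins. These 9 are Mhc, Mlc1, Mlc2, Msp300, Prm, Tm1, Tm2, up and wupA. All protein-coding genes here means the 13945 annotated on the fruit fly chromosome arms that held peaks. The 10 genes were chosen by name, and every place where Grauzone was detected in a gene's body or within 5 kb of it was taken. The assay was ChIP-seq, which recovers and reads the chromatin fragments that an antibody brings down together with a protein. The flies carried a stable transgene in which grau, the gene of the zinc finger protein Grauzone, was fused at its C-terminal end to GFP, the tag that the antibody bound. The only group was whole embryos, male and female pooled, 0 to 24 hours old, in 3 biological replicates, with DNA of 200 to 800 bp. No untagged or input list was analysed here, so the values have no background measured the same way beside them, and the read depth is unknown.

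Muscle contracts in sarcomeres, in which thick filaments of myosin pull on thin filaments of actin, and the tropomyosins and troponins on the thin filament make the pull depend on calcium. Mef2 is a MADS-box transcription factor that binds an A/T-rich site and switches on many of these genes as the embryo's muscles form. Since whole embryos were used, only some of the cells were muscle or its precursors, and strong occupancy in few cells and weak occupancy in many cannot be told apart.

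The authors' lists mark each peak by its point source, the most enriched base, and give it a signal whose scale was not stated. The signal serves here only to rank peaks within a list, with rank 1 the strongest, or, between replicates, after division by the list's median. The 3 replicate lists and the list called on their pooled reads each held 30000 peaks. The reproducible list held the 9624 strongest pooled peaks, so its ranks are also ranks among the 30000, and its signals are single pooled values with no spread. Between 54.3% and 60.9% of the peaks of a replicate list had a q-value of 0.01 or less. A replicate was taken to hold the same point source where it had one within 100 bp. Distances to a transcription start are negative upstream of it and positive downstream.

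Grauzone was detected reproducibly in or within 5 kb of 7 of the 10 genes, and most of it at 3 of them. Of the 9624 reproducible point sources, 26 lay in or within 5 kb of a gene of the set. Mef2 had 12 of them, Tm1 had 5, Msp300 had 4 and Prm had 2. Mlc1, Mlc2 and up had 1 each, which for Mlc1 and Mlc2 lay outside the gene and nearer to a start of a neighbouring gene. Mhc, Tm2 and wupA had none. Over all protein-coding genes, 63.8% had a reproducible point source in the body or within 5 kb, against which the 7 of 10 stand close. In the body itself, 5 of the 10 genes had one, against 18.6% of all genes, but the 10 genes differ widely in length. Under 5 kb, 0 of the 2 genes, Mlc1 and Mlc2, had one, against 8.38% of all genes of that length. From 5 to 20 kb it was 2 of 4 genes, Prm and up, against 41.6%. Over 20 kb it was 3 of 4 genes, Mef2, Msp300 and Tm1, against 67.3%.

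At promoters, here within 500 bp of a transcription start, the set again stood near the rest of the genome. The 3 long genes Mef2, Msp300 and Tm1 had a reproducible promoter point source, that is 3 of 10 genes, against 32.1% of all protein-coding genes. Of the 8 genes with 2 or more starts it was 3, against 50.6% of all genes with as many. The same number, 3 genes, came from the strongest 9624 peaks of each replicate alone (3.00 ± 0, SD, n = 3). Those strongest peaks held 26 point sources of the 10 genes' windows in replicate 1, 23 in replicate 2 and 27 in replicate 3 (25.3 ± 2.08, SD, n = 3). Of the 26 reproducible places, 21 had a point source in all 3 replicate lists and 5 in 2 of them. Their ranks ran from 52 to 9155 with a median of 5206.5, and 6 were among the 1000 strongest of the list.

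**Figure D1:**
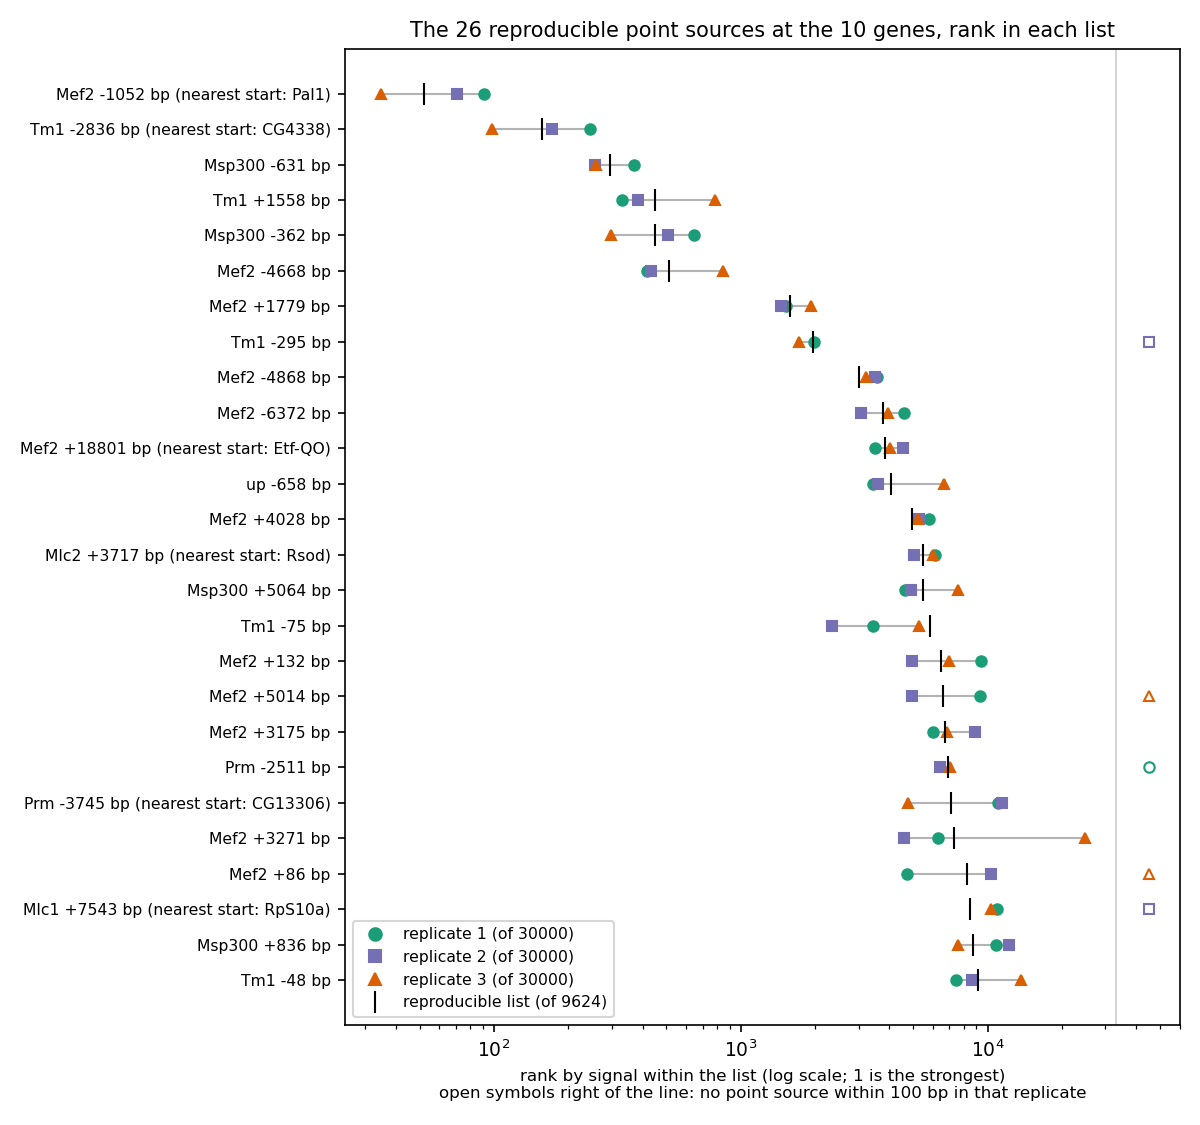
Ranks of the 26 reproducible point sources at the 10 genes, 1 row each, named by gene and by distance to the gene's nearest start, on a log scale (1 is the strongest). Coloured symbols are the 3 replicates, black ticks the reproducible list and open symbols replicates without a point source within 100 bp. The 6 strongest rows hold ranks from 35 to 846 in every replicate, and the next row holds ranks from 1455 to 1921.

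Inside the genes the point sources lay in introns and at starts. Of the 20 in a gene body, 13 were intronic away from the gene's own starts, 6 were within 500 bp of an own start and 1 was in a 5′ UTR. None lay in a coding exon or a 3′ UTR, which away from promoters held only 0.333% and 1.07% of the whole reproducible list. Counted over all 26 and any gene's starts, 11 were at promoters, 13 in introns, 1 in a 5′ UTR and 1 between genes. In the whole reproducible list promoters held 42.9% of point sources, introns 38.6%, 5′ UTRs 0.468% and intergenic sequence 15.6%. For 6 of the 26, all outside the 10 gene bodies, the nearest start belonged to a neighbouring gene.

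Mef2 (FBgn0011656, 2R from 9913496 to 9958858, minus strand, 11 transcripts from 3 starts) had the most point sources and, just upstream, the strongest. The strongest peak ran from 9959641 to 9960176 with its point source at 9959910, 1052 bp upstream of the outermost Mef2 start. Its signal was 8036.4, at rank 52. It ranked 91 in replicate 1, 71 in replicate 2 and 35 in replicate 3, with scaled signals of 50.4, 53.3 and 88.4 times the list's median (64.0 ± 21.2, SD, n = 3). All replicates thus placed it among their 100 strongest, with replicate 3 the highest. This place is not at a Mef2 promoter as defined here. It lay in an intron of the neighbouring gene Pal1, which encodes a neuropeptide-processing enzyme, 168 bp from a Pal1 start and 178 bp from a start of Pdrg1, on the other strand.

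The 10 point sources within the Mef2 body lay in its upstream and middle parts, near the starts and in the introns between them. The strongest, at 9949432 (signal 2638.2, rank 510), lay 4668 bp upstream of the middle Mef2 start, inside an intron of the 2 transcripts that begin at the outermost one. It ranked 417 in replicate 1, 432 in replicate 2 and 846 in replicate 3, with scaled signals of 22.1, 20.6 and 18.1 (20.3 ± 2.05, SD, n = 3). The same peak, 948 bp wide, held another point source at 9949632 (signal 694.1, rank 3011). It was present in all replicates too, at ranks 3557, 3483 and 3209.

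Around the middle Mef2 start, at 9944764, 3 more point sources followed in the direction of transcription. The one 132 bp downstream, in the 5′ UTR, was a weaker promoter peak (signal 321.3, rank 6498). Its replicate ranks differed, at 9378, 4941 and 6947. The one 1779 bp downstream, at 9942985, also lay in 5′ UTR sequence (signal 1188.7, rank 1586). It had near-equal ranks of 1528, 1455 and 1921 and a scaled signal of 9.27 ± 0.778 (SD, n = 3). The one 3175 bp downstream lay in an intron (signal 309.8, rank 6718).

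Weaker places completed the Mef2 locus. Past the outermost start, at 9958858, intronic point sources lay at 3271, 4028 and 5014 bp with signals of 280.2, 429.7 and 315.7. For the one at 5014 bp, replicate 3 had its nearest point source 138 bp away. The one at 3271 bp had the widest range of ranks among the 21 places found in every replicate, at of 6298, 4582 and 24732. At that start itself a point source 86 bp downstream had a signal of 246.0 and rank 8209, and replicates 1 and 2 ranked it 4720 and 10310. Replicate 3 had no point source within 100 bp of it, and its nearest lay 144 bp away. An intronic point source 6372 bp upstream of the innermost start (signal 558.0, rank 3779) ranked 4600, 3076 and 3947 in the replicates. Beyond the 3′ end of Mef2, a point source at 9910814 (signal 551.2, rank 3835) lay 79 bp from a start of Etf-QO, a mitochondrial electron transfer enzyme.

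The count of 10 in the Mef2 body, 0.220 per kb, stood above those of most genes of its length. Of the 1013 protein-coding genes over 20 kb, 63 had 10 or more, and their median over all 1013 was 2.00. In the 706 genes of 20 to 50 kb the mean was 2.39 and the 90th percentile 7.00. By length, number of point sources in the body and highest signal there, the genes most like Mef2 among 2586 compared were raskol, a Ras GTPase-activating protein, with a distance of 0.180, mew, an integrin alpha subunit, with 0.206, and CG42674 with 0.317. The distance is Euclidean over the 3 measures on a log2 scale. raskol had 9 point sources in 41864 bp, mew 9 in 44082 bp and CG42674 8 in 48704 bp.

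**Figure D2:**
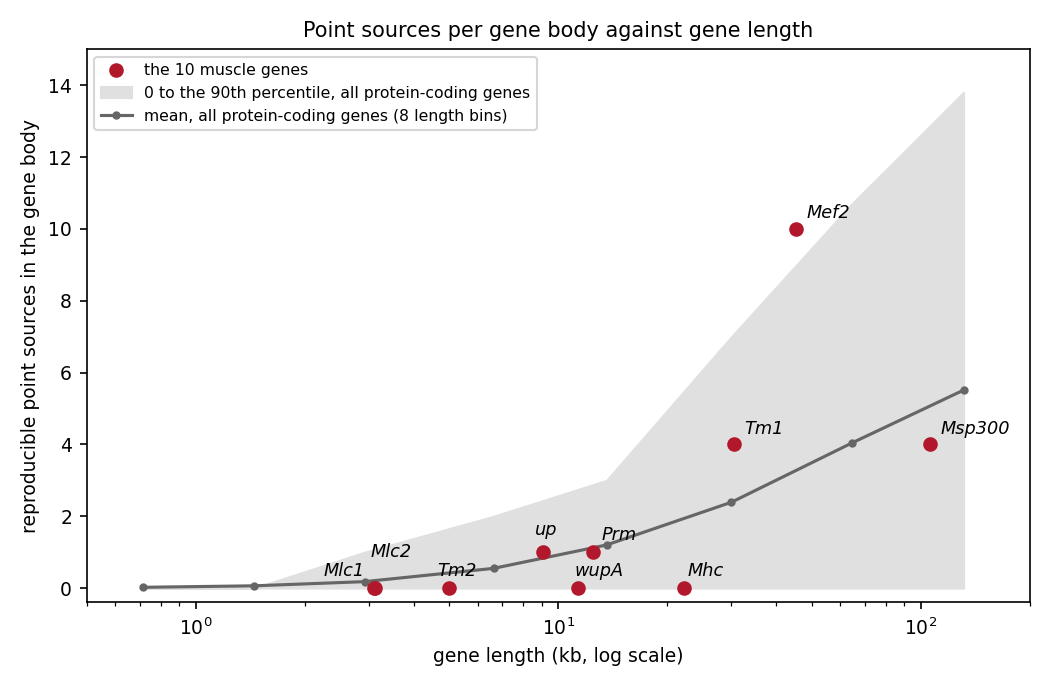
Number of reproducible point sources in the gene body (vertical axis) against gene length in kb (log scale) for the 10 muscle genes (red). The line is the mean and the shading reaches the 90th percentile of all protein-coding genes in 8 length bins, drawn at each bin's median length. Mef2, with 10, lies above the shading, Tm1 and Msp300 have 4 each, and Mhc, over 20 kb long, has 0.

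Msp300 and Tm1 carried the other places among the 1000 strongest, those of Msp300 upstream of internal starts and those of Tm1 upstream of the gene and in an intron past its innermost start. Msp300 (FBgn0261836, 2L from 5100877 to 5207002, plus strand, 11 transcripts from 5 starts) encodes a giant nesprin that anchors muscle nuclei and mitochondria. Its strongest peak ran from 5145455 to 5146012, with the point source at 5145755, 631 bp upstream of an internal start (signal 3730.7, rank 295). It ranked 370 in replicate 1, 257 in replicate 2 and 259 in replicate 3, with scaled signals of 23.3, 28.4 and 37.4 (29.7 ± 7.14, SD, n = 3). The next peak, from 5107846 to 5108371, had its point source 362 bp upstream of another internal start and is the gene's promoter peak (signal 2894.3, rank 451). Its replicate ranks were 647, 509 and 297 and its scaled signals 16.2, 18.6 and 35.0 (23.2 ± 10.2, SD, n = 3). Both peaks were present in all replicates, and replicate 3 gave the highest scaled signal for each.

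The other Msp300 places were weaker. A point source at 5113878, 5064 bp downstream of a start, had a signal of 383.8 and rank 5494, and one at 5101713, 836 bp past the outermost start, had 227.8 and rank 8742. All 4 places were in introns of the transcripts that span them. With 4 in 106126 bp, or 0.0377 per kb, Msp300 had fewer than the mean of 5.51 in the 83 genes over 100 kb. Those genes had a median length of 131314 bp, and in the 224 genes of the next shorter length bin the mean was 4.04. Of the 1013 protein-coding genes over 20 kb, 326 had 4 or more. The point sources kept to the upstream part of the gene: downstream of 5151749, the innermost start, no list held one before the gene's end at 5207002. The last in the pooled list lay at 5151439, and the last in the replicates at 5149880, 5151636 and 5151110. Farther upstream, between 5119714 and 5145744, no list held one either, so the upstream part was not filled evenly.

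Tm1 (FBgn0003721, 3R from 15278220 to 15308779, plus strand, 18 transcripts from 8 starts) encodes tropomyosins of muscle and of the cytoskeleton. Its strongest place in the body, at 15292504 in a peak from 15292195 to 15292815 (signal 2894.5, rank 449), was intronic in 18 of 18 transcripts and 1558 bp downstream of the innermost start. It ranked 330 in replicate 1, 385 in replicate 2 and 789 in replicate 3, with scaled signals of 25.3, 22.2 and 19.0 (22.1 ± 3.17, SD, n = 3). Among the 6 places within the 1000 strongest, this and the strongest in the Mef2 body had the smallest spread relative to the mean, and in both replicate 3 was the lowest.

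At an internal Tm1 start at 15281371, a peak from 15280888 to 15281353 held 2 point sources, 295 bp and 75 bp upstream. The farther one had a signal of 1009.7 and rank 1953, and ranks of 1981 in replicate 1 and 1713 in replicate 3. Replicate 2 had none within 100 bp of it, and its nearest lay 133 bp away. The nearer one (signal 360.8, rank 5852) ranked 3432, 2334 and 5254. Replicate 2 thus had 1 point source for the pair, between both positions. At the innermost starts a point source 48 bp upstream was the weakest of the 26 (signal 214.4, rank 9155), just above the list's lowest signal of 201.4.

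Upstream of Tm1, a peak from 15275126 to 15275647 was the second strongest of the set (signal 5135.5, rank 157). Its point source lay 2836 bp before the outermost Tm1 start and between the starts of a pair of genes that read away from each other, 138 bp from that of CG4338 and 143 bp from that of Cp190, an insulator protein. It ranked 245, 172 and 98 in replicates 1, 2 and 3, with scaled signals of 30.0, 34.8 and 58.5 (41.1 ± 15.2, SD, n = 3). The strongest place of the Mef2 window showed the same arrangement, a peak in every replicate upstream of the muscle gene but nearer to starts of other genes on both strands.

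**Figure D3:**
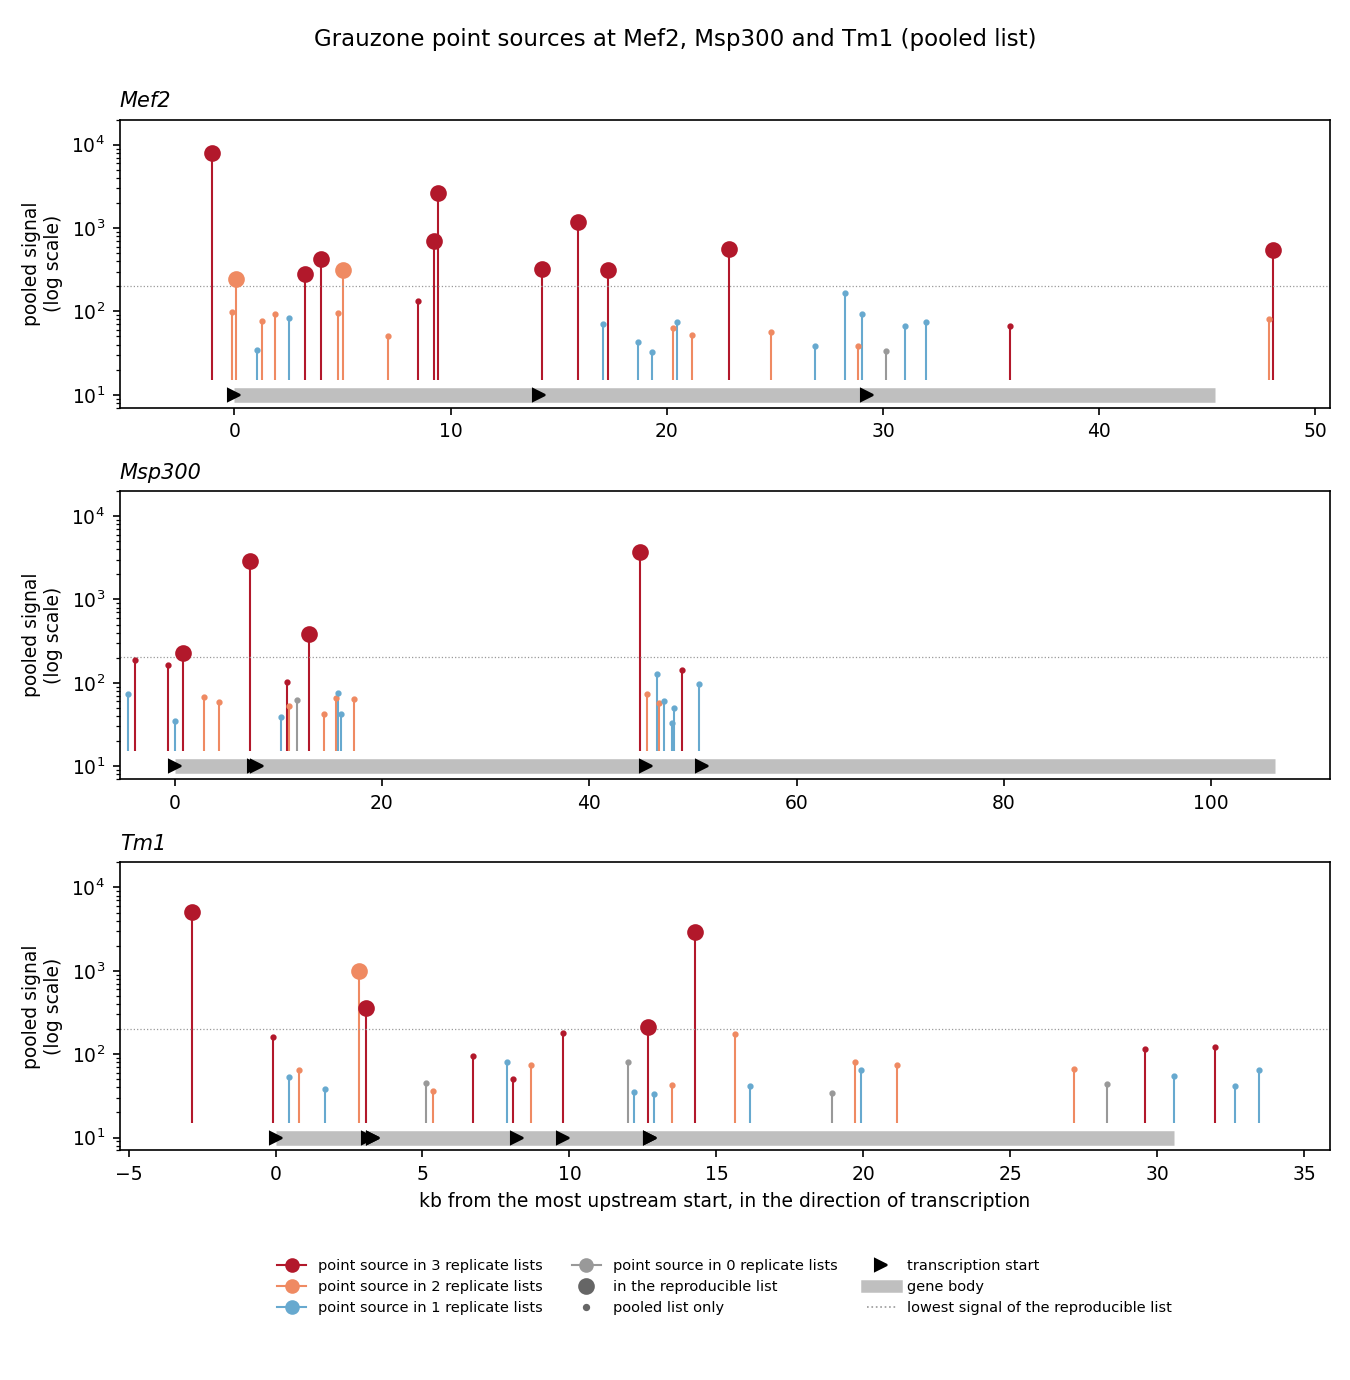
Pooled signal (log scale) of every pooled point source at Mef2, Msp300 and Tm1, against distance in kb from the gene's outermost start in the direction of transcription. Large symbols are in the reproducible list, colours give the number of replicate lists with a point source within 100 bp, triangles are starts and grey bars the gene bodies. The tallest stems stand upstream of Mef2 and Tm1, with signals of 8036.4 and 5135.5, and at internal starts or in introns of all 3 genes, and the downstream part of Msp300 is empty.

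The remaining thin filament genes had 1 reproducible place between them. It lay in up (FBgn0004169, X from 13593474 to 13602578, minus strand, 18 transcripts from 6 starts), which encodes troponin T. The peak ran from 13600219 to 13600586, with its point source at 13600438 in the first intron of 16 of the 18 transcripts and 658 bp upstream of an internal start (signal 520.2, rank 4071). It ranked 3438 in replicate 1, 3594 in replicate 2 and 6633 in replicate 3, with scaled signals of 4.43, 4.29 and 3.02 (3.91 ± 0.776, SD, n = 3). This was an ordinary peak by the list's median signal of 439.2.

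The leading point sources with 50 bases on each side are printed for the strongest places of Msp300 and Tm1 and for up, to show what sequence the peaks centre on. They are the plus strand of dm6, 5′ to 3′, with capitals for matches on either strand to the MEF2 consensus, CANNTG (the E-box bound by muscle basic helix-loop-helix factors), CGATA or GAGAG.
Msp300 intron, rank 295, chr2L:5145705-5145805: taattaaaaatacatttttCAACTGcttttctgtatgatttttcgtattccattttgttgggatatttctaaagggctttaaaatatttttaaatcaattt
Msp300 internal promoter, rank 451, chr2L:5108100-5108200: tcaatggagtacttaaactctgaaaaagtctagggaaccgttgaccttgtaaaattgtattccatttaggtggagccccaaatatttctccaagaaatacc
Tm1 upstream, rank 157, chr3R:15275334-15275434: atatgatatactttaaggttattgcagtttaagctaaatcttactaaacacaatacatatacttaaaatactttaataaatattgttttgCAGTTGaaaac
Tm1 intron, rank 449, chr3R:15292454-15292554: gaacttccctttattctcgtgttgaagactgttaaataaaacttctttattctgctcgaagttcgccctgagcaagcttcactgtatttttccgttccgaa
Tm1 internal promoter, rank 1953, chr3R:15281026-15281126: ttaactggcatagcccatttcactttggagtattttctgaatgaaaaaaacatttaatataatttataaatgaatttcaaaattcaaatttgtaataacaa
up first intron, rank 4071, chrX:13600388-13600488: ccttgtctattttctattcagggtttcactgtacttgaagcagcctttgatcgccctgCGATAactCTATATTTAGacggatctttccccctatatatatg

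The window in up holds a match to the MEF2 consensus and, just before it on this strand, CGATA. The GC content is 21.8% at ranks 157, 295 and 1953, 39.6% at rank 449, 37.6% at rank 451 and 40.6% in up. The windows at ranks 449, 451 and 1953 hold no match to the 4 marked motifs. Over all 26 windows the GC content had a median of 38.6% (21.8% to 61.4%), against 31.7% over all 9624 windows (6.93% to 73.3%). CANNTG was present in 13 of the 26 windows and in 33.3% of all windows. The MEF2 consensus was present in 2 of the 26, that in up and a weaker place of Mef2, and in 7.51% of all. CGATA, the core bound by BEAF-32, was in 3 of 26 and 15.4% of all, and TATCGATA, the DNA replication-related element, which contains CGATA, in 0 of 26 and 1.68% of all. GAGAG, bound by GAGA factor, was in 3 of 26 and 8.27% of all, and a run of AAAAAA in 4 of 26 and 25.4% of all. These are descriptions of letters in windows, with no test. The part of GC content in these shares was not tested.

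The thick filament genes had weak places or none. Prm (FBgn0003149, 3L from 8732858 to 8745310, minus strand, 5 transcripts from 2 starts) encodes paramyosin and, from an internal start, miniparamyosin. A point source at 8741418 lay in an intron 2511 bp upstream of the internal start (signal 298.2, rank 6935). It ranked 6426 in replicate 2 and 7035 in replicate 3, and replicate 1 had no point source nearer than 716 bp. Another at 8749055, 3745 bp upstream of Prm and 671 bp from a start of CG13306, had a signal of 291.5 and rank 7078, with ranks of 11006, 11435 and 4771. Both lay in the weaker part of the reproducible list.

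The myosin light chain genes had no reproducible place in the gene. Mlc1 (FBgn0002772, 3R from 27657078 to 27660177, minus strand) encodes the alkali light chain. Its window held a point source 126 bp from a start of RpS10a, a ribosomal protein gene (signal 235.6, rank 8514), with ranks of 10891 and 10286 in replicates 1 and 3 and with the nearest 2711 bp away in replicate 2. Mlc2 (FBgn0002773, 3R from 30171438 to 30174551, minus strand) encodes the regulatory light chain. Its window held one 373 bp from a start of Rsod, a gene related to superoxide dismutases (signal 384.4, rank 5484). It ranked 6131, 5013 and 6024 in the replicates, with a scaled signal of 3.07 ± 0.368 (SD, n = 3).

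Mhc, Tm2 and wupA had pooled places only. Mhc (FBgn0264695, 2L from 16766566 to 16788766, plus strand, 21 transcripts from 5 starts) encodes the muscle myosin heavy chain. Its strongest pooled place, at rank 9752 with a signal of 197.7, was just below the reproducible list's lowest signal of 201.4 and lay 4333 bp upstream of the gene. It ranked 11112, 10513 and 9811 in the replicates. In the Mhc body, the pooled list held 4 point sources, the strongest 46 bp upstream of a start (signal 99.3, rank 15720). It was present in replicates 1 and 2, at ranks 19998 and 19073.

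Tm2 (FBgn0004117, 3R from 15310193 to 15315197, plus strand, 6 transcripts from 5 starts), the tropomyosin gene next to Tm1, had its strongest pooled place 1 bp upstream of its outermost start (signal 120.4, rank 13892). The nearest replicate point sources lay 9 bp from a Tm2 start in replicate 1, 27 bp in replicate 2 and 47 bp in replicate 3, at ranks 12482, 20694 and 16508. Tm2 and Mhc thus had places within 500 bp of a start in every replicate list, the strongest of each list at ranks from 12482 to 20694. A stronger point source in the Tm2 window, at rank 4567 in replicate 1, lay at the outer edge of the window and 127 bp from a start of CG6276. wupA (FBgn0283471, X from 18105568 to 18116922, minus strand, 13 transcripts from 3 starts) encodes troponin I. Its strongest pooled place, at rank 10193 with a signal of 186.4, lay 28 bp from a start of Mvb12. In its body the strongest was an intronic one 911 bp downstream of a start (signal 147.9, rank 11999), at ranks 14041 and 11160 in replicates 2 and 3. Replicate 1 had none within 100 bp of it, and its strongest in the body ranked 15622. Within 500 bp of a wupA start, every replicate list also had a place, the strongest at ranks 24170, 25584 and 17910.

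**Figure D4:**
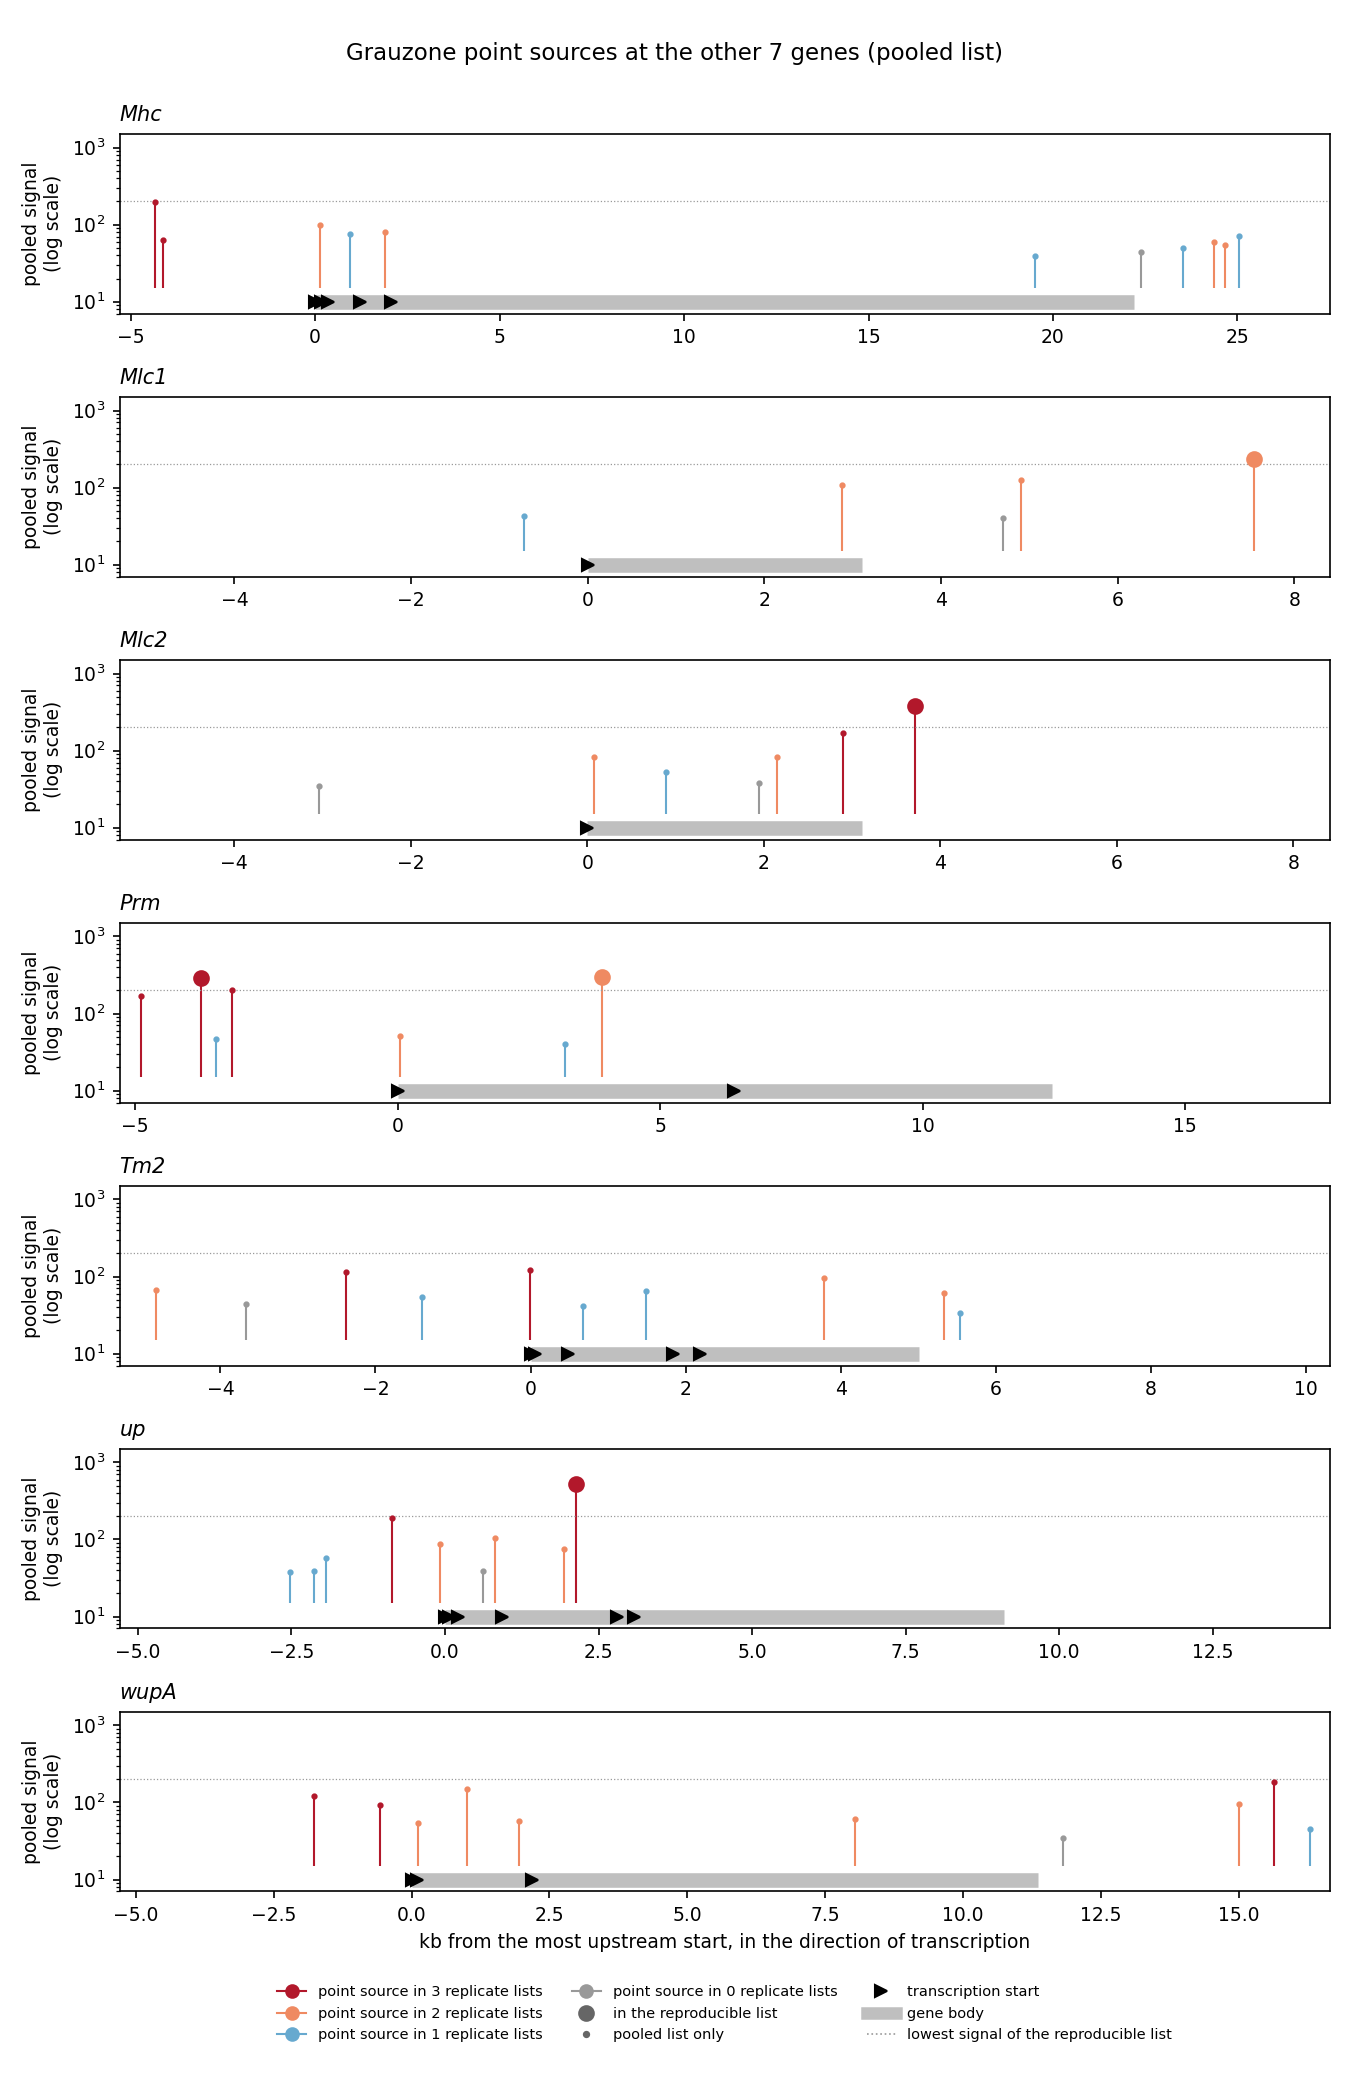
Pooled signal (log scale) of every pooled point source at Mhc, Mlc1, Mlc2, Prm, Tm2, up and wupA against distance in kb from the outermost start, with symbols and colours by list and number of replicates, triangles for starts and grey bars for gene bodies. Signals stay at or below 520.2, the value in up. Mhc, Tm2 and wupA have no symbol above the dotted line at 201.4, the lowest signal of the reproducible list.

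In the whole pooled list, 148 point sources lay in the windows of the 10 genes, of which 122 were outside the reproducible list, and 34 of these 122 had a q-value of 0.01 or less. At any q-value, 9 of the 10 genes had a promoter point source in the pooled list, against 47.9% of all protein-coding genes. Mlc1 had none, its nearest lying 725 bp from the start. Of the 10 genes, 8 had 2 or more starts, and the pooled share was not computed for genes with as many. Best promoter ranks were 17510 at Mlc2, 23457 at Prm, 15242 at up and 21759 at wupA, with signals of 83.4, 51.4, 103.9 and 58.2. In the whole replicate lists 10 genes had a promoter point source in replicate 1, 9 in replicate 2 and 6 in replicate 3 (8.33 ± 2.08, SD, n = 3). The windows held 134, 137 and 109 point sources (127 ± 15.4, SD, n = 3). Of the 148, 42 were matched in every replicate list. Without replicate 3, 69 were matched in both others, and with a match within 50 bp the 42 became 22.

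Other muscle genes, in lists chosen with earlier results of these data known, had promoter point sources in shares from 8% to 47.6%. Of 24 further sarcomere genes 7 had a reproducible promoter point source (29.2%), against 32.1% of all protein-coding genes. The strongest were at Fhos, a formin that assembles actin (rank 168, signal 4960.9), and sls, the fly titin (rank 566, signal 2426.9). Fhos ranked 304, 221 and 78 in the replicates, and sls 663, 618 and 493. The actin gene Act87E (rank 1718) and tmod, which caps thin filaments (rank 1785), followed. Of 25 mesoderm and muscle transcription factors 2 had one (8%), org-1, a T-box gene, at rank 47 with a signal of 8385.3, and tin, a homeobox gene of heart and visceral muscle, at rank 726 with 2090.5. The peak at org-1 ranked 35, 48 and 69 in the replicates and that at tin 600, 626 and 1125. Of 21 genes of myoblast fusion and muscle attachment 10 had one (47.6%), the strongest at mbc (rank 1342), WASp (rank 2249), Vrp1 (rank 2542) and mew (rank 3368). Counting the body and 5 kb around it, the lists had 58.3%, 64.0% and 95.2% of genes with a point source, against 63.8% of all genes. These shares were not split by gene length, and longer genes have wider windows. The list with 95.2% includes long genes such as kirre, on X from 2740384 to 3134532, with 49 point sources in its body.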

How the data were processed

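Per the labels, the samples were ChIP-seq libraries of 3 biological replicates of 1 group. The authors deposited a peak list per replicate, one called on the pooled alignments with a control alignment, and a reproducible list, the optimal set by irreproducible discovery rate (IDR), on dm6. Each deposited list gives a signal per peak, whose scale is not stated, and a −log10 q-value, used only for the threshold of 0.01. In the reproducible list all peaks shared 1 q-value. Aligner, caller and the IDR threshold are not given in the sources used here. Control lists and signal tracks were not analysed here. Depth per sample is unknown, so no counting interval is given.

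Point sources were ranked by signal within a list, and for replicates divided by the list's median. Windows were the gene body and 5 kb each side in Ensembl release 115, and 23307 starts of genes on arms with peaks were used. A point source in the windows of both Tm1 and Tm2 was counted once. Own-promoter counts use the gene's own starts within 500 bp. Sequences were read from the RefSeq dm6 assembly, on which 99.51% of 30748 coding transcripts of the annotation began with ATG. None is printed for Mef2. The design has 1 group, so no test between groups was possible, and counts are set beside the share of all protein-coding genes. The 10 genes, the other muscle lists and the choices were made with earlier results of these data known.

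The genes named were the 10 genes, the gene with the nearest start to each place, up to 4 genes per other list with the strongest promoter peak, and the 3 genes most like Mef2. Genes near weaker places, such as CG6276 and Mvb12, and the farther starts Cp190 and Pdrg1, were named after their values were seen. In the other lists, Unc-89 and LamB1 did not match the annotation by symbol. Alternatives changed the promoter distance, the window, the overlap rule, the list's strength, the match distance and the replicates used. Scripts ran in Python 3.11.15 with numpy 2.4.6, plots used matplotlib 3.10.9, and the functions were tested on simulated data.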

Additional observations from a re-analysis of the deposited data

How the results depend on the processing

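With a promoter of 250 bp 2 genes kept a reproducible promoter point source, and with 1000 bp or any base of the peak 4 had one. The share of all genes then was 26.3%, 36.5% and 34.0%, against 32.1%. In the stronger 4812 peaks it was 2 genes and 19.1%, and with peaks matched in all 3 replicates 3 genes and 28.6%. Leaving out a replicate meant keeping the peaks matched in both others, in a list that still came from all 3 replicates. It gave 3 genes each time and 29.3% to 30.3%. The stronger 4812 peaks held 12 of the 26 window point sources, in 4 of the 7 genes, and 48.5% of all genes had one, against 63.8%. Within 2 kb, 6 of the 10 genes and 50.1% of all genes had one, and within 10 kb all 10 and 76.3%. In the body it was 5 genes and 18.6%, and for any base of the peak 8 genes and 64.6%. With peaks matched in all 3 replicates it was 6 genes and 59.9%. Without replicates 1, 2 and 3 in turn it was 6, 7 and 6 genes, and 60.7% to 61.5% of all genes. Per replicate, all peaks gave 8.33 genes with a promoter point source and 127 window point sources, and peaks with q of 0.01 or less gave 5 and 63.7, against 3.00 and 25.3 in the strongest 9624. Point sources matched in every list numbered 42, 22 within 50 bp, and 51 to 69 without a replicate. That the list's length sets these counts follows from their construction. Wider motif windows and leaving out replicates for the matched count were chosen after seeing the data. With 100 bases on each side in place of 50, CANNTG was in 18 of 26 windows and 57.8% of all, and the MEF2 consensus in 5 and 13.6%. Of 70 alternative values 36 met the rule for an unchanged one, which was within 1.5 times for counts and within a 95% binomial interval for shares, so small moves of a share count as changes. No paired analysis was possible because there was 1 group and no test.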

Other observations

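Some point sources among the strongest 9624 of a replicate had no reproducible one within 100 bp. In an intron of Mef2, replicate 1 had one at rank 3428, and neither the pooled list nor the other replicates had a point source within 100 bp of it. Its peak, from 9935599 to 9935870, overlapped the reproducible peak from 9935829 to 9936169. Replicate 1 also held the point source of that reproducible peak, at rank 4600. In Tm1, 1747 bp past a start, all 3 replicates had one, at ranks 8320, 11027 and 10958, and the pooled list had none within 100 bp. This place lay inside the reproducible peak from 15292195 to 15292815, whose own point source had rank 449, so it is not a separate peak. Upstream of up, 849 bp from its outermost start, replicate 3 had one at rank 7208, against ranks of 14053 and 14431 in replicates 1 and 2 and 9987 in the pooled list. Upstream of Msp300, a place 664 bp from a start of CG4230 had ranks of 8044, 7587 and 26838 in the 3 replicates.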
